A study of Sus scrofa with 32 samples.

Results

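The Polycomb mark H3K27me3 was compared between proliferating and differentiated pig muscle satellite cells that received no inhibitor. The comparison takes every H3K27me3 library labelled WT, 2 at 0 h and 2 at 60 h, which are 4 of the 32 samples of the series and 4 of its 8 H3K27me3 libraries. The assay was CUT&Tag, in which an antibody leads a transposase to a histone mark in permeabilised cells so that tagged DNA is sequenced. The other conditions were treated with SGC-CBP30, a bromodomain inhibitor of CBP and EP300 (labelled CBP, at 5 uM/ml), for 48 h of proliferation or 60 h of differentiation, and the other antibodies were H3K4me3, H3K27ac and IgG. WT in the labels stands beside CBP as the untreated condition, no gene was altered in any group, and the age and breed of the animals were not given in the sources used here. Nothing states that replicates came from separate cultures, so p-values measure the spread between libraries, which may be technical. For genes this spread was estimated over all 8 H3K27me3 libraries, those treated with SGC-CBP30 included.

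H3K27me3 is written by Polycomb repressive complex 2, whose catalytic subunits are EZH2 and EZH1, and is removed by the demethylases KDM6A and KDM6B. It lies over silent genes, above all those of developmental transcription factors, often as wide domains around their start sites. In muscle progenitors EZH2 is known to hold back muscle genes before differentiation. A peak list of a whole culture cannot tell fewer marked cells and less mark in every cell apart.

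The labels were checked with H3K4me3, the mark of active start sites, in the untreated libraries. Of 8 satellite cell and myoblast markers 7 carried it in every library, with VCAM1 the exception. Of 7 differentiating muscle markers found in the gene table, MYOG, MYMK, ACTA1, ACTC1, TNNT2, TTN and CKM, none carried it in either 0 h library and all carried it in both 60 h libraries, for a summed 32.8 and 33.2 kb. None of 7 endothelial markers carried H3K4me3, whereas 4 of 8 fibroblast markers did at both times, with summed lengths between 12 and 16.3 kb. Fibroblast H3K27ac was 1.67 and 1.02 kb at 0 h and 10.4 and 5.67 kb at 60 h. Of 7 immune markers 3 or 4 carried H3K4me3, for 4.54 and 4.35 kb at 0 h and 7.02 and 6.11 kb at 60 h, and of 6 adipocyte markers 2 or 3, for 2.02 to 2.58 kb. The part of other cells in the H3K27me3 results was not tested.

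At 60 h the H3K27me3 lists held more peaks, which lay farther from genes. The 0 h libraries had 1338 and 2660 peaks and the 60 h libraries 8922 and 6174. Covered length was 1.11 and 3.12 Mb at 0 h against 7.26 and 4.67 Mb at 60 h. Both 60 h lists were thus longer than both 0 h lists. All 4 untreated lists were shorter than those of the SGC-CBP30 libraries, which had 19317 and 14723 peaks at 0 h and 13258 and 12336 at 60 h. Peaks within 1 kb of a protein-coding gene's end made up 33.6 and 36.3% at 0 h and 19.4 and 20.2% at 60 h, a mean of 35.0% ± 1.97 (SD, n = 2) against 19.8% ± 0.559 (SD, n = 2). The median distance to a gene end was 2.21 and 2.24 kb at 0 h and 6.81 and 5.83 kb at 60 h, and 6.67 and 6.58% of peaks were over 50 kb away at 0 h against 13.3 and 12.2% at 60 h.

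The number of peaks a library yields depends on its depth and background, neither of which is known for these libraries. All lists were therefore also cut to the length of the shortest, the 1338 peaks with the highest deposited -log10 p of each library. At this length covered DNA was 1.11 and 2.08 Mb at 0 h and 1.44 and 1.23 Mb at 60 h, and the groups overlapped. The share of peaks within 1 kb of a gene end was then 33.6 and 41.2% against 32.3 and 29.9%, and the share within 5 kb was 66.1 and 65.8% against 58.0 and 58.5%. Both 60 h lists stayed below both 0 h lists at either length, with a smaller gap at equal length. Exact two-sided permutation tests gave p = 0.33 for each of these measures whose groups did not overlap, the smallest p that 2 libraries against 2 allow (0.556 after Benjamini-Hochberg adjustment over 20 such comparisons).

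**Figure D1:**
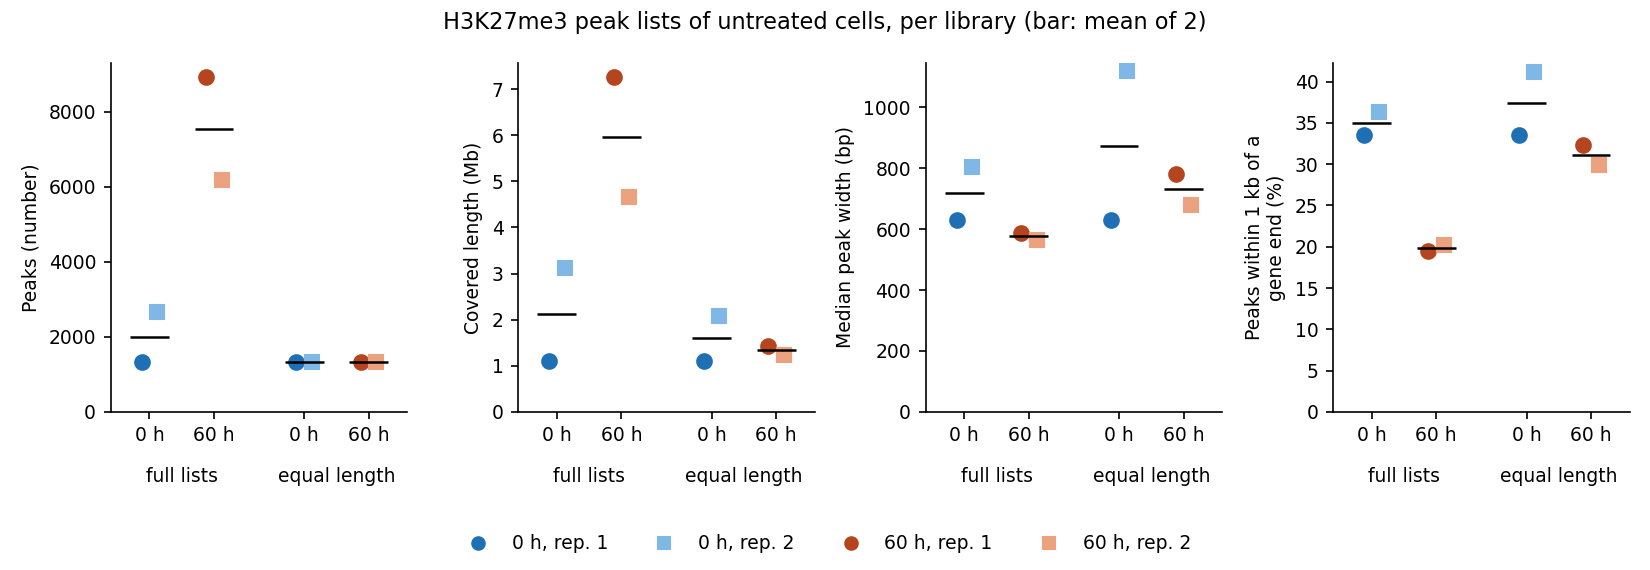
The panels plot each of the 4 untreated libraries as a point, with the full lists beside the lists of equal length. In the full lists the 60 h libraries stand above the 0 h libraries in peak number, which is set equal in the lists of equal length. At either length they stand below the 0 h libraries in the share of peaks within 1 kb of a gene end. The gap in that share is narrower at equal length.

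Peak width set 0 h replicate 2 apart from the other libraries. It held 405 peaks of 2 kb or more, 15.2% of its list, against 5.16% in 0 h replicate 1 and 5.86 and 4.0% at 60 h. Such wide peaks made up 41.2% of its covered length and 16.2, 19.6 and 13.5% of the others'. Its widest peak, of 9504 bp, lay at HMX1, a homeobox gene. At equal length peaks of 2 kb or more made up 26.2% of its list, 5.16% in 0 h replicate 1 and 12.4 and 7.77% at 60 h. The second 0 h library is thus the one with the most wide peaks, and counts that move with it are given without it as well. Whether its cells held broader Polycomb domains was not tested, and its depth and background are not known.

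The 4 lists merged into 10688 regions, of which 773 (7.23%) were held in all 4 libraries. A further 3167 (29.6%) were gained, present in both 60 h libraries and neither at 0 h, and 196 (1.83%) were lost, the reverse. The remaining 6552 were found in some other combination of libraries, 3744 of them in 60 h replicate 1 alone. With lists of equal length 195 of 3016 regions were held (6.47%), 375 gained (12.4%) and 546 lost (18.1%), so that the balance of gain and loss turned with the length of the lists. At equal length replicates shared more peaks at 0 h than at 60 h. Of the peaks of one 0 h library 80.2 and 69.7% lay on a peak of the other, against 48.6 and 49.5% at 60 h and 24.4 to 28.9% between times. Without 60 h replicate 2 the full lists gave 6965 gained regions, and without 0 h replicate 1 they gave 732 lost regions (335 without 60 h replicate 1).

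The classes differed in what they were. Held regions had a median merged width of 2106 bp and 49.0% lay within 1 kb of a gene end, against 855 bp and 17.6% for gained regions and 933.5 bp and 34% for lost ones. Over all regions the values were 632 bp and 20.1%, so gained regions sat near genes about as often as any region. In the lists of equal length the order was the same, with 59.9% of held, 39.8% of lost and 30.1% of gained regions within 1 kb of a gene end and 32.6% of all regions. Width and peak rank come from the lists that defined the classes and are given as description.

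Held regions took 75.4 and 49.7% of the covered length at 0 h but 17.4 and 22.4% at 60 h in the full lists. At equal length the shares were 20.7 and 19.7% at 0 h and 24.0 and 22.0% at 60 h. The held regions themselves did not shift in one direction: 181 were longer in both 60 h libraries than in both at 0 h, 162 were shorter in both, and 430 overlapped. In 425 of the 773 the longest stretch was that of 0 h replicate 2. Lost regions lay close to held ones, with 84 of 196 (42.9%) within 10 kb of a held region, against 313 gained regions (9.88%) and 936 of the other combinations (14.3%). At equal length these shares were 11.4% of lost, 3.2% of gained and 7.58% of other regions.

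Peaks of the gained class also ranked lower than held peaks. Ranked by deposited -log10 p, the authors' own value, held regions had a median rank of 1976 in 60 h replicate 1 (22.1% down the list) and gained regions 3557.5 (39.9%). In 60 h replicate 2 the medians were 1995 (32.3%) and 3039 (49.2%). Lost regions stood nearer to held ones at 0 h, with a median rank of 786.5 against 669 for held regions in replicate 2 and 776 against 624 in replicate 1.

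The SGC-CBP30 libraries, which the classes did not use, were read at the same regions. Of held regions 771 (99.7%) had a peak in both SGC-CBP30 libraries at 0 h, as did 191 lost regions (97.4%), 2206 gained regions (69.7%) and 66.3% of all regions. Most regions absent from the untreated 0 h lists were thus marked in the longer lists of inhibitor-treated 0 h cells. At 60 h both SGC-CBP30 libraries had a peak in 632 held (81.8%), 1650 gained (52.1%) and 76 lost regions (38.8%), beside 41.3% of all. Held regions were also wider, and an overlap of 1 bp counted. The parts of list length, of region width and of the inhibitor in these shares cannot be told apart.

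The other marks rarely met the classes. H3K4me3 lay in both 60 h libraries on 79 held (10.2%), 121 gained (3.82%) and 10 lost regions (5.10%), beside 4.26% of all 10688. At 0 h the shares were 6.47, 2.62 and 4.59%, beside 2.92% of all. H3K27ac, an active mark that uses the same lysine, lay in both 60 h libraries on 27 of the 10688 regions in all, 5 of them gained, 2 held and 2 lost.

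**Figure D2:**
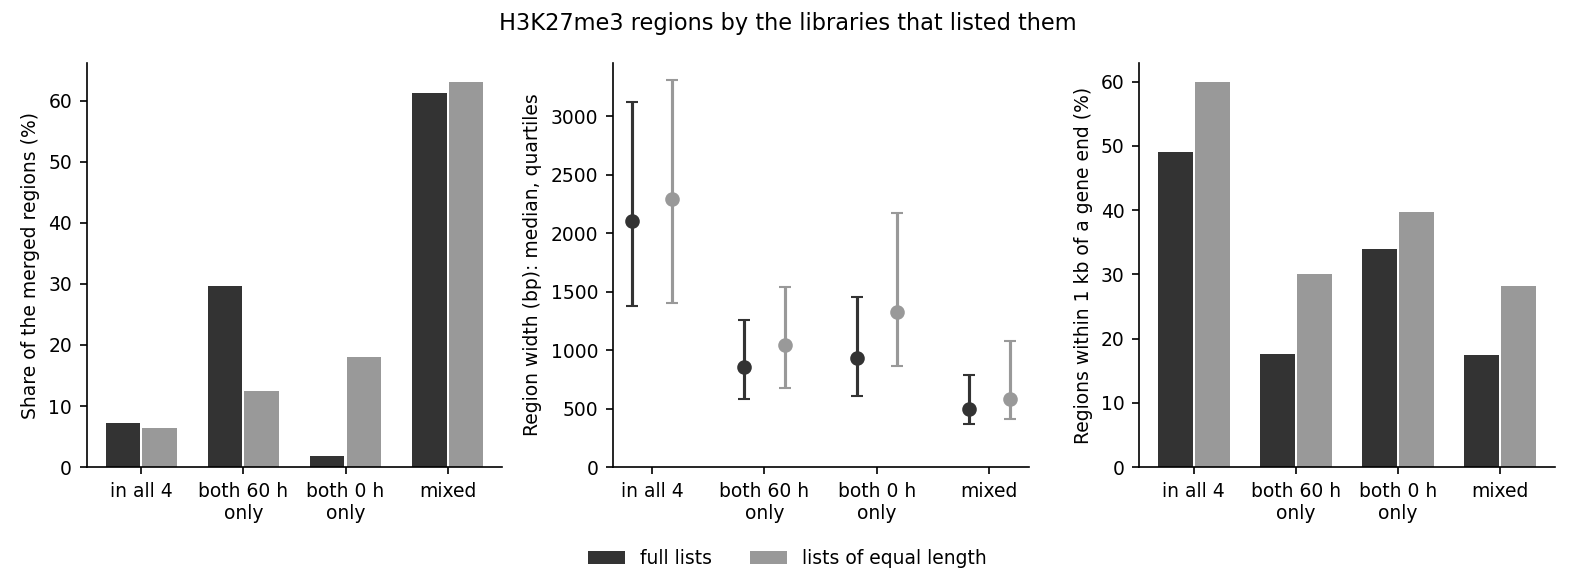
The panels plot the held, gained and lost regions for the full lists and the lists of equal length. Gained regions outnumber lost ones in the full lists, 3167 to 196, and lost outnumber gained at equal length, 546 to 375.

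The widest held regions lay on developmental regulators. On chromosome 6, 30195873 to 30206132 (Sscrofa11.1, as are all positions), a region over the homeobox gene IRX6 held 1.82 and 6.42 kb of H3K27me3 at 0 h and 7.99 and 6.73 kb at 60 h. The region at HMX1, chromosome 8, 2445148 to 2454651, held 1.94 and 9.50 kb against 2.66 and 1.47 kb. At WT1, which encodes a zinc finger factor of kidney and gonad, chromosome 2, 28410975 to 28420080 held 5.29 and 9.11 kb against 2.13 and 1.01 kb. IRX6 and WT1 thus moved in opposite directions within a class called held, since presence in all lists says nothing of the length inside a region. Among the 8 widest were also regions over LMX1B, NKX6-1, HOXB13 and GATA3, all transcription factor genes, and over SLC17A7, a vesicular glutamate transporter gene.

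The widest gained region, chromosome 14, 51285115 to 51290396, reached an end of TBX1, the T-box gene of the pharyngeal arches, and held 5.28 and 1.69 kb at 60 h. The others among the 8 widest lay over the receptor genes RAMP3 and GHRHR, between the water channel genes AQP5 and AQP6 (1.91 kb from an end of AQP6), and 5.04 to 22.3 kb from the nearest gene ends, those of SSTR5, MVK, CSF1R and SIK1. No homeobox gene was the nearest to any of these 8, while IRX6, HMX1, LMX1B, NKX6-1 and HOXB13 were nearest to 5 of the 8 held ones. Among the 8 widest lost regions were those at LIN28A, chromosome 6, 83804881 to 83808792, with 2.23 and 3.91 kb at 0 h, at OLIG2, chromosome 13, 196597826 to 196601495, and those within 5 kb of HOXB8, DLX6, KCNN1 and KCNA1. The widest, chromosome 5, 6368793 to 6374492, held 2.50 and 5.70 kb at 0 h and lay 35.4 kb from the nearest gene end, that of NFAM1.

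At equal length the widest lost regions included those at FEZF2 (4.51 and 6.87 kb at 0 h), RASGRF1 (5.24 and 5.79 kb), PRDM12 and DLX3. FEZF2 and PRDM12 encode factors of neuron formation and RASGRF1 a Ras activator. The full 60 h lists did hold base pairs near these genes, for RASGRF1 3.14 and 4.08 kb, in peaks that ranked below the first 1338. The widest gained region at equal length, chromosome 1, 265260786 to 265265425, lay at ADGRD2, an adhesion receptor gene, with 4.64 and 4.49 kb at 60 h. CA4, a carbonic anhydrase gene, was among the widest held regions at equal length, with 0.981 and 1.26 kb at 0 h and 6.70 and 5.14 kb at 60 h.

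To set genes beside each other, the DNA covered by peaks up to 5 kb from either gene end was summed as the gene's H3K27me3 level in kb. Any such length was found at 620 and 1071 genes at 0 h and at 2599 and 2045 at 60 h, of 19550 protein-coding genes. In all 4 libraries it was found at 569 genes, in both 60 h libraries alone at 960 and in both 0 h libraries alone at 12. Of 3695 genes tested with limma, 652 (17.6%) were higher at 60 h and 24 (0.65%) lower at a Benjamini-Hochberg adjusted p below 0.05, with a median log2 change of 0.47 over all genes tested. The 652 formed 556 groups that share no region and the 24 formed 21. At 546 of the 652 both 0 h libraries were listed at 0, so the call records appearance in a list, and the groups did not overlap at any called gene (37.5% of tested genes lay wholly higher and 2.6% wholly lower at 60 h).

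At equal length 133 of 1352 tested genes (9.84%) were higher and 155 (11.5%) lower, with a median change of 0.00. Wholly higher and wholly lower genes made up 21.2 and 24.1% of those tested. Both settings called 82 genes higher and 20 lower, and 1 gene, NOVA2, an RNA-binding protein of neurons, higher with full lists and lower at equal length. When the full values were quantile scaled, 400 genes were higher and 649 lower, so the balance of the calls depends on how list length is treated. Leaving out 0 h replicate 1 gave 169 higher and 49 lower genes and leaving out 60 h replicate 1 gave 214 and 7, while lower genes numbered 12 without 0 h replicate 2 and 6 without 60 h replicate 2.

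H3K27me3 fell at LIN28A (gene ID 100142662, chromosome 6, 83806178 to 83818550), whose protein blocks let-7 microRNAs in stem cells. It measured 2.23 and 3.91 kb at 0 h and was listed at 0 in both 60 h libraries (limma adjusted p = 0.00736). At OLIG2 (100152482, chromosome 13, 196596838 to 196602197), a bHLH factor of motor neurons and oligodendrocytes, it was 6.47 and 11 kb at 0 h and 1.27 and 0.746 kb at 60 h. Every 60 h value of these genes stood far below every 0 h value. The log2 change at OLIG2, on the scale of base pairs plus 500 as all such changes here, was -2.59 ± 0.380 (SE, adjusted p = 0.0109 with limma). At WT1 (397338, chromosome 2, 28411467 to 28456007) the level fell from 4.51 and 7.93 kb to 0.748 and 0.601 kb, a change of -2.47 ± 0.396 (SE, limma adjusted p = 0.0140).

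KCNA1 (100048962, chromosome 5, 65556837 to 65565880) encodes a voltage-gated potassium channel. Its level was 2.27 and 3.03 kb at 0 h and 0 and 0.301 kb at 60 h (log2 change -2.31 ± 0.301 SE, limma adjusted p = 0.00814). MSX1 (100302364, chromosome 8, 5628381 to 5632375) encodes a homeobox repressor that keeps progenitors from differentiating. It fell from 2.83 and 7.17 kb to 0.910 and 0.612 kb (-2.01 ± 0.422 SE, limma adjusted p = 0.0280). IRX2 (100620587, chromosome 16, 78305869 to 78322776), another homeobox gene, had 1.93 and 4.73 kb at 0 h and 0.379 and 0.399 kb at 60 h (-2.00 ± 0.394 SE, limma adjusted p = 0.0232). C16H5orf38 lies beside it in nearly the same window. The other genes among the 10 largest falls were TTLL6, a tubulin glutamylase listed at 0 in both 60 h libraries, DDX31, a helicase, and KCNN1, a calcium-activated potassium channel with 0.749 and 3.13 kb at 0 h and listed at 0 at 60 h. All 10 were also called lower at equal length, and at OLIG2 both 60 h libraries were then listed at 0. The cut takes no peak from 0 h replicate 1 and most peaks from the 60 h lists. It can lower a 60 h value but not raise it. For genes that fell with full lists, equal length is thus no separate test.

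The calls at these genes rest unequally on single libraries. LIN28A, OLIG2 and KCNA1 stayed below the threshold of 0.05 whichever of the 4 libraries was left out, whereas WT1, TTLL6, KCNN1, C16H5orf38, DDX31, MSX1 and IRX2 missed it without either 60 h library, and TTLL6, KCNN1 and DDX31 also without 0 h replicate 2. DDX31 missed it without 0 h replicate 1 as well. With equal length and 1 library left out together, LIN28A and IRX2 missed the threshold whichever library it was, KCNN1 in both fits that tested it, C16H5orf38 in 3 of 4 and MSX1 in 2 of 4, while OLIG2, WT1, KCNA1, TTLL6 and DDX31 passed each time. Fitted on the 4 untreated libraries alone, MSX1 (limma adjusted p = 0.0692), IRX2 (0.0573), C16H5orf38, DDX31 and KCNN1 missed the threshold with full lists. A 1 kb window ended the calls at OLIG2 (log2 change -0.86, limma adjusted p = 0.544), TTLL6, KCNN1, C16H5orf38, MSX1 and IRX2. A 10 kb window ended those at MSX1 (limma adjusted p = 0.219), IRX2 (0.165), TTLL6 and KCNN1. Outside the 10 largest, OTX2 (3.37 and 5.45 kb at 0 h, 1.61 and 0.952 kb at 60 h), FOXC2 (2.78 and 4.09 kb against 0.667 and 0.385 kb) and FLT1 (1.95 and 3.89 kb against 0.495 and 0.773 kb) were lower in both settings. They encode a head homeobox factor, a forkhead factor of mesoderm and vessels, and a receptor for vascular endothelial growth factor. FOXL1 and MTHFSD share most of the FOXC2 window and were called with it.

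The largest rises were at genes listed at 0 in both 0 h libraries. The water channel genes AQP6 (100145893, chromosome 5, 15888080 to 15892113) and AQP5 share a region and reached 6.65 and 4.60 kb and 5.37 and 3.14 kb in the 60 h libraries (limma adjusted p = 0.00454 for AQP6). LMO1 (100127356, chromosome 9, 1045138 to 1082974), a LIM-only transcription cofactor, had 5.15 and 3.73 kb at 60 h (limma adjusted p = 0.00454). CCNO and MCIDAS, neighbours on chromosome 16 that act in the formation of multiciliated cells, shared a region of 3.98 and 4.45 kb at CCNO. PDE2A, a cyclic nucleotide phosphodiesterase, had 5.74 and 3.86 kb, and DBH, which makes noradrenaline, 5.53 and 3.26 kb. TBX1 had 7.13 and 2.26 kb (limma adjusted p = 0.0122) and missed the threshold without 0 h replicate 1. FBXL16 and LOC100737333 complete the 10. None of the 10 was called at equal length, where PDE2A and DBH fell short of the minimum for testing, and LMO1 kept 2.01 and 1.62 kb (limma adjusted p = 0.169). Fitted at equal length on the 4 untreated libraries alone, LMO1 was called with the same log2 change (limma adjusted p = 0.00823). At equal length CCNO and MCIDAS had 0 and 0.865 kb at 60 h, FBXL16 0 and 0.864 kb and LOC100737333 0 and 2.58 kb. Any rise at these genes at equal length thus rested on 60 h replicate 2 alone.

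Other genes were called higher with full lists and at equal length. YPEL4 (100520717, chromosome 2, 13289369 to 13294245) had 3.78 and 3.49 kb at 60 h in both settings and was listed at 0 in both 0 h libraries (limma adjusted p = 0.00454). PAQR5 (100521597, chromosome 1, 167154636 to 167234835), a membrane progesterone receptor gene, had 3.53 and 3.71 kb, and 2.94 and 1.71 kb at equal length. FLT4 (100518179, chromosome 2, 78076008 to 78115137), the receptor gene of lymphatic vessels, had 3.52 and 2.04 kb, and 3.06 and 2.04 kb at equal length. The receptors for lymphatic and blood vessel growth factors, FLT4 and FLT1, were thus called in opposite directions in both settings. DPYSL4, CDSN, FAM57B and 2 unnamed neighbours of FAM57B and FLT4 complete the 8 largest rises called in both settings. The level at CDSN was 3.56 and 2.16 kb with full lists and 0.681 and 0.695 kb at equal length, and the neighbour of FAM57B, LOC110260082, was not called at equal covered length. DPYSL4 missed the threshold without 0 h replicate 1 and without 60 h replicate 1.

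**Figure D3:**
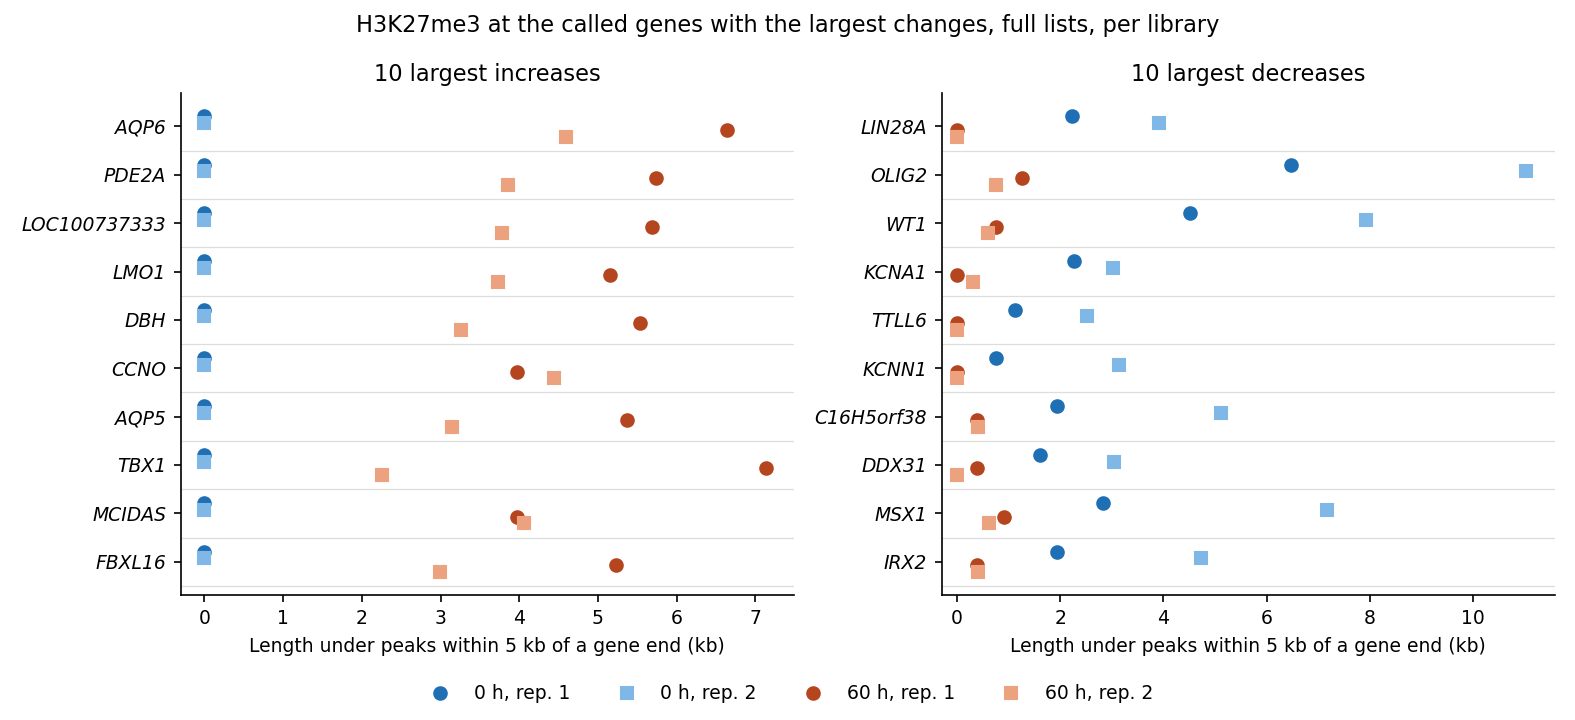
Each row is a gene and each point its H3K27me3 length in kb within 5 kb of a gene end in 1 untreated library. OLIG2 runs from 6.47 and 11 kb at 0 h to 1.27 and 0.746 kb at 60 h, and AQP6 from 0 to 6.65 and 4.60 kb.

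H3K4me3 and H3K27ac were read at the same genes. Of the 652 higher genes 291 were tested for H3K4me3 and 118 (40.5%) were higher and 30 (10.3%) lower, beside 41.5 and 5.62% of all genes tested for it. For H3K27ac 48 of 94 (51.1%) were higher and 11 (11.7%) lower, beside 51.1 and 7.43%. With quantile scaling of H3K4me3, 73 of the 291 (25.1%) were higher and 78 (26.8%) lower, beside 17.7 and 26.2% of all genes. With quantile scaling of H3K27ac, 14 of the 94 (14.9%) were higher and 20 (21.3%) lower, beside 18.0 and 18.2%. Of the 24 lower genes 14 were tested for H3K4me3, and 8 were higher and 1 lower (6 and 3 with quantile scaling). Among them H3K4me3 at KCNN1 rose from 2.95 and 2.88 kb to 6.0 and 6.53 kb, and at KCNA1 it fell from 0.38 and 0.32 kb to 0 in both libraries. MCIDAS, where H3K27me3 rose, had H3K4me3 of 3.36 and 3.96 kb at 0 h and 2.03 and 1.5 kb at 60 h, which was called lower.

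Several gene lists, of transcription factors and of other kinds, held a smaller share of the mapped mark in both 60 h libraries. Homeobox genes outside the HOX clusters carried 15.3 and 16.7% of all gene-end H3K27me3 length at 0 h and 6.71 and 7.34% at 60 h. The total itself was 816 and 2265 kb at 0 h and 4024 and 2706 kb at 60 h, and the length on homeobox genes overlapped between the times, with 125 and 377 kb against 270 and 199 kb. For the list of PAX, T-box, SOX, FOX and GATA factors the shares were 8.26 and 7.48% against 3.21 and 3.36%, and for bHLH factors 4.52 and 3.50% against 1.84% in both 60 h libraries. Neuronal and synaptic genes held 5.54 and 3.74% against 2.29 and 2.28%. In each of these 4 lists both 60 h shares stood below both 0 h shares, and the same held at equal length, where homeobox genes had 15.3 and 18.2% against 9.72 and 9.30%, or 125 and 278 kb against 99.8 and 83.0 kb. The fall was not particular to these lists. Endothelial genes held 1.60 and 1.12% against 0.573 and 0.610%, and TGF-beta and BMP genes 1.74 and 1.09% against 0.754 and 0.682%. These, the adipocyte, the epithelial and endoderm, and the pluripotency and germline lists stood lower at both lengths. Notch and excitation-contraction genes stood higher at both. The HOX genes overlapped in the full lists, with 0.734 and 2.28% against 0.716 and 0.751%. At equal length they stood lower, with 0.734 and 1.71% against 0.390 and 0.265%. Potassium and sodium channel genes overlapped between the times in the full lists, with 2.68 and 1.85% against 1.93 and 2.25%. At equal length they stood higher at 60 h, with 2.68 and 2.18% against 2.85 and 2.76%.

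Of 94 homeobox genes tested with full lists 6 (6.38%) were higher and 3 (3.19%) lower, beside 17.6 and 0.65% of all genes, and 85 were not called, with a median log2 change of 0.00 beside 0.47 over all tested genes. POU4F1, a factor of sensory neurons, was listed at 0 in both 0 h libraries and had 3.50 and 3.33 kb at 60 h, and OTX1 had 0 and 1.41 kb against 4.61 and 4.86 kb, while OTX2, IRX2 and MSX1 were the 3 lower. At equal length 3 of 83 were higher, OTP, NKX2-2 and GBX2, and 12 (14.5%) lower, beside 9.84 and 11.5% of all genes, with a median of -0.74 beside 0.00 over all. Of 53 PAX, T-box, SOX, FOX and GATA factors 2 were higher, TBX1 and TBR1, and 2 lower, FOXC2 and FOXL1 (median 0.07). At equal length 2 of 44 were higher and 11 (25%) lower (median -1.0), among them FOXA2, an endoderm factor with 2.41 and 8.99 kb at 0 h and 1.28 and 0.323 kb at 60 h in the full lists.

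Of 32 bHLH genes 3 were higher, TCF15, SIM1 and HAND2, and OLIG2 lower (9.38 and 3.13%, beside 17.6 and 0.65% of all genes), with a median of 0.33. At equal length 1 of 23 was higher and 8 (34.8%) lower (median -0.45), OLIG2 among them, beside 9.84 and 11.5% of all genes. Of 47 neuronal and synaptic genes 11 (23.4%) were higher and none lower, with a median of 0.60. The neurotrophin receptor gene NTRK3 had 3.91 and 1.77 kb and the RNA-binding protein gene ELAVL3 3.14 and 1.55 kb at 60 h, both listed at 0 in both 0 h libraries. At equal length 3 of 36 were higher, TAC1, GRIN3A and GABRB1, and 7 (19.4%) lower, among them SLC18A3 and CHAT, which share a locus for acetylcholine synthesis and storage. Channel genes showed 10 higher and 2 lower of 43 (median 0.71), with KCNH5 at 2.09 and 1.99 kb at 60 h from 0 in both 0 h libraries, and KCNA1 and KCNN1 as the 2 lower, shares of 23.3 and 4.65% beside 17.6 and 0.65% of all genes. At equal length 2 of 31 channel genes were higher and 4 lower (median 0.00).

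Calls at signalling genes were all higher with full lists and in both directions at equal length. Over all genes 17.6% were higher and 0.65% lower with full lists, and 9.84 and 11.5% at equal length. This balance is thus not particular to signalling genes. Of 28 WNT pathway genes 4 (14.3%, beside 17.6% of all genes) were higher with full lists, the receptors FZD10 and LGR6, the agonist RSPO2 and the inhibitor WIF1, and at equal length 4 of 23 (17.4%) were higher and as many lower, beside 9.84 and 11.5% of all genes. FZD10 had 2.31 and 1.49 kb at 60 h and was listed at 0 in both 0 h libraries. Of 19 FGF, hedgehog and retinoic acid genes 3 (15.8%) were higher, FGF5, FGF6 and FGF8. FGF5 rose from 0.382 and 0.511 kb to 4.60 and 2.60 kb, and FGF6, the muscle-expressed member of the family, was listed at 0 in both 0 h libraries and had 2.13 and 1.32 kb at 60 h. Both were higher at equal length as well, where FGF4 was lower. Of 8 Notch genes MFNG was the 1 higher (12.5%), and of 11 TGF-beta and BMP genes GDF10 (9.09%). At equal length BMP3 and GDF6 were lower of 7 in the TGF-beta and BMP list (28.6%). Among the genes of the Polycomb machinery CBX2 and CBX8, which share a window and encode subunits of Polycomb repressive complex 1, had 0.856 and 0.863 kb at 60 h and were listed at 0 in both 0 h libraries, 2 of 9 tested in that list, and neither was called at equal length.

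Muscle genes carried little H3K27me3 at either time. Of 31 myogenic regulatory factors and partners 1 had a base of H3K27me3 in any untreated library, and of 32 satellite cell and progenitor genes 6, all at 60 h. From these lists 2 and 9 genes were tested, in the same order, and none was called. The minimum for testing counts the SGC-CBP30 libraries too, so a gene could be tested without H3K27me3 in untreated cells. MYF5, MYF6, MYOD1, MYOG, MEF2C, SIX4, EZH2 and EZH1 were without a base of H3K27me3 in any untreated library, as were others of the 37 panel genes found, CDKN1A, CDKN1C, CDKN2B and IGF2 among them. PAX7, the satellite cell factor (100625823, chromosome 6, 77160827 to 77268626), had 0.381 kb in 60 h replicate 1 and 0 in the other 3 libraries. PAX3, its paralogue, had 0.700 kb in the same library and 0 elsewhere. TBX18, a mesoderm T-box factor, had 0.703 kb there and 0 elsewhere, and none of these values was called.

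Contractile genes with a base made up 1.89 and 5.66% of their list at 0 h and 13.2 and 7.55% at 60 h. Of 53 contractile genes found 14 were tested with full lists, and 2 (14.3%) were higher and none lower (median 0.00), near the 17.6 and 0.65% of all genes. MYL4, an embryonic and atrial myosin light chain, rose from 0 and 0.367 kb to 3.15 and 3.47 kb, and MYL3, a slow and ventricular one, was listed at 0 in both 0 h libraries and had 2.03 and 0.895 kb at 60 h. ACTA1, skeletal actin, had 0.792 and 4.59 kb at 0 h and 1.17 and 1.43 kb at 60 h and was not called. Of 8 genes of excitation-contraction coupling 3 were higher, the calcium channel subunits CACNA1S and CACNG6 and the calcium buffer PVALB. None of these 5 was called at equal length, where MYL3, MYL4 and PVALB were too low to test.

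The panel also holds factors of the heart and lateral mesoderm. NKX2-5, the heart homeobox factor, had 3.57 and 9.71 kb at 0 h and 3.08 and 1.55 kb at 60 h, TBX5 1.66 and 6.97 kb against 2.1 and 3.09 kb, ISL1 2.48 and 3.84 kb against 4.06 and 1.79 kb, and GATA4 0.648 and 2.01 kb against 0.450 and 1.17 kb. None of these was called with full lists, and the groups overlapped at TBX5, ISL1 and GATA4. At equal length TBX5 and ISL1 were lower. PAX6, the eye and brain factor, had 1.99 and 2.99 kb against 3.76 and 1.74 kb, and DLK1, an imprinted Notch ligand relative, 0.537 and 0.794 kb against 0.607 and 0.313 kb, with DLK1 lower at equal length. MSX2, the paralogue of MSX1, had 0.311 and 2.66 kb against 0.706 and 0 kb, and SOX2, the stem cell factor, 0 and 0.567 kb against 0.454 and 0.462 kb. GATA6 had 0 and 0.348 kb against 1.74 and 1.45 kb and was not called (limma adjusted p = 0.185), and neither were MSX2, SOX2 and PAX6 at either list length.

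Markers of other lineages gave few calls. Of 13 endothelial genes FLT4 and NOS3 were higher and FLT1 lower, and at equal length FLT4 was higher and ESAM, FLI1, SOX17 and FLT1 lower, of 10 tested. None of 22 epithelial and endoderm genes was called with full lists, and 4 of 14 were lower at equal length, CDX2, FOXA2, CLDN3 and CDH1. Of 8 adipocyte genes CEBPA was higher, at 0.741 and 1.04 kb from 0, of 10 cartilage and bone genes SP7, and of 6 pluripotency and germline genes SALL4 was higher and LIN28A lower. At equal length EBF2 of 4 adipocyte genes, COL2A1 of 6 cartilage and bone genes and FBLN1, the 1 extracellular matrix gene tested, were lower, as were LIN28A and PRDM14 of 3 pluripotency and germline genes, and ALPL, a bone phosphatase, was higher. None of 9 immune genes, 5 extracellular matrix genes, 4 CDK inhibitor genes, 3 ribosomal protein genes and 1 cell cycle gene tested with full lists was called. Beside the 17.6 and 0.65% of all genes called higher and lower, these lists are too small for a share to be read.

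The HOX genes, patterning factors of the body axis, formed 4 clusters with unlike levels. HOXB (chromosome 12, 24779953 to 24955661) carried 8.22 and 35.9 kb of H3K27me3 at 0 h and 9.22 and 7.49 kb at 60 h. That is 20.4% of its length in 0 h replicate 2 and 4.26 to 5.25% in the other 3 libraries. HOXA (chromosome 18, 45368340 to 45485306) had 0.095 and 3.07 kb against 2.64 and 3.30 kb, HOXC (chromosome 5, 19146096 to 19273267) 0.244 and 6.21 kb against 5.56 and 3.36 kb, and HOXD (chromosome 15, 81888997 to 81995026) 0.698 and 8.59 kb against 4.44 and 2.01 kb. In each cluster the 0 h libraries lay on both sides of at least 1 library at 60 h, so no difference between the times exceeded the spread of the 0 h libraries. At equal length the groups did not overlap in 3 clusters. HOXB had 8.22 and 24.3 kb at 0 h against 1.92 and 0.577 kb at 60 h, HOXD 0.698 and 3.38 kb against 0.595 and 0.336 kb, and HOXA, the other way, 0.095 and 0 kb against 0.578 and 1.45 kb.

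The active marks changed over the same clusters. H3K27ac went from 17.4 and 14.8 kb at 0 h to 34.7 and 34.9 kb at 60 h in HOXA, from 14.8 and 12.3 kb to 35.7 and 34.7 kb in HOXC, from 1.61 and 2.59 kb to 8.92 and 8.20 kb in HOXB, and from 0 in both libraries to 5.53 and 5.56 kb in HOXD. The 60 h libraries were above the 0 h libraries in all 4 clusters (exact tests of 2 libraries against 2 cannot pass 0.05). Over the genome H3K27ac peaks covered 13.0 and 11.6 Mb at 0 h and 20.2 and 18.0 Mb at 60 h, and 51.1% of all genes tested for it were called higher. H3K4me3 was lower at 60 h in HOXB alone, at 15.9 and 15.5 kb from 20.3 and 18.0 kb. Of 23 HOX genes tested for H3K27me3, HOXA11 was higher, at 0.516 and 0.585 kb from 0 in both 0 h libraries, none was lower and 22 were not called. The share higher was 4.35%, beside 17.6% higher and 0.65% lower of all genes, and the median log2 change 0.05 beside 0.47. At equal length HOXA13 was the 1 of 15 called higher (6.67%) and none was called lower, beside 9.84 and 11.5% of all genes. The median log2 change of the HOX genes was then -1.16, beside 0.00 over all genes tested.

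**Figure D4:**
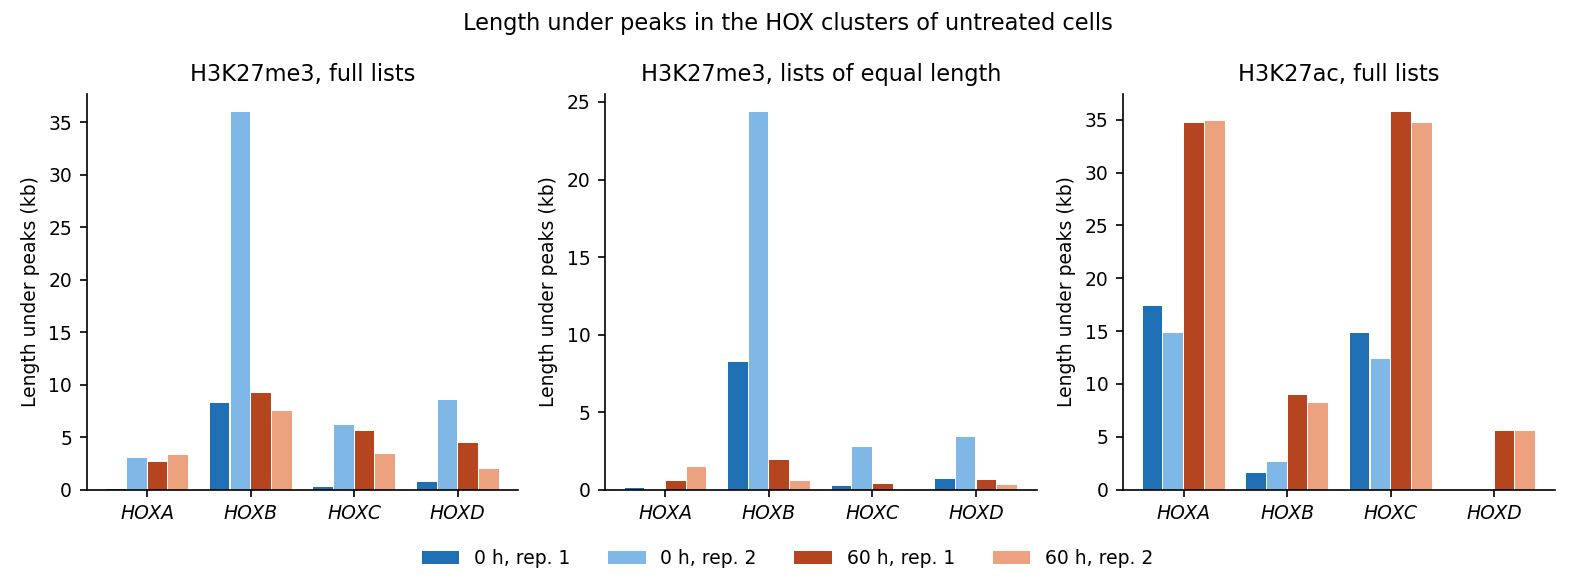
Panels show the kb under peaks in the HOXA, HOXB, HOXC and HOXD clusters in each untreated library. HOXB in 0 h replicate 2 reaches 35.9 kb of H3K27me3, against 7.49 to 9.22 kb in the other 3 libraries.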

How the data were processed

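One peak list per library was deposited, broad for H3K27me3 and narrow for the other marks. MACS2 2.1.0, Trimmomatic (no version given) and the build Sscrofa11.1 were used, per the submitters' processing notes. Sources used here name no aligner, calling options or control library, and sequencing depth, with the precision it gives, was not given in the sources used here. In the deposited lists the score is near 10 times the -log10 q of a peak, the ratio is its fold enrichment over background, and the -log10 p and -log10 q columns give each peak's significance. All are the authors' own values within 1 library, so comparisons used positions alone, and -log10 p ranked peaks within a list. The summit offset of the narrow lists, as deposited, is another value and was not used.

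The labels conflict. C3H cells in RPMI appear in the growth protocol, and C3H as the cell line, beside pig satellite cells, the treatment field gives proliferation at 60 h too, and the dose unit uM/ml is unusual. Groups were taken from titles. The 8 IgG samples were not analysed here.

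Lists were handled in Python 3.11.15 with numpy 2.4.6, pandas 2.3.3, scipy 1.17.1 and matplotlib 3.10.9. Overlapping peaks of a list were merged, and regions were merged over the 4 lists, with 1 bp counted as shared. Gene positions came from the RefSeq table of Sscrofa11.1 (19550 protein-coding genes on placed chromosomes), which gives neither strand nor exons, so both ends of a gene were used. Gene values, in base pairs within 5 kb of either end, entered limma 3.58.1 (R 4.3.3) as log2(bp + 500), if 2 or more of the 8 H3K27me3 libraries held at least 200 bp. The fit held 4 groups (4 residual degrees of freedom) with trend and robust eBayes and Benjamini-Hochberg adjustment over all genes tested. The scripts were tested on simulated data. Of the 3695 genes tested 1019 had no base in an untreated library. Replicate numbers were not used to pair the samples in the main fit. The deviations of same-numbered libraries correlated at -0.0645 between the untreated times and at -0.0645 to 0.222 over the 6 pairs of H3K27me3 groups. With 2 libraries per group such values cannot tell whether same-numbered libraries shared a culture or batch. A fit with the replicate number as a block is given below.

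Genes were named by rule: the 10 largest rises and falls among called genes whose groups do not overlap, the 8 largest of each direction called with full lists and at equal length, a fixed panel with a base in an untreated library, genes at the 8 widest regions of a class, and 2 to 4 members of each list. Other genes were named after their values were seen. The members and lists were chosen with earlier results of these data known.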

Additional observations from a re-analysis of the deposited data

How the results depend on the processing

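Lists of equal length reversed the ratio of mean covered length at 60 h to 0 h from 2.82 to 0.837, and a -log10 q of at least 5 gave 0.549. That cutoff left 0 and 28 peaks at 0 h and 23 and 4 at 60 h. The groups thus overlapped, and the 0 h length came from replicate 2 alone. Equal length and the cutoff, in this order, moved gained regions from 3167 to 375 and 2 and lost regions from 196 to 546 and 0. Higher genes went from 652 to 133 and 1, and lower genes from 24 to 155 and 0. The median gene change went from 0.47 to 0.00 in both. Equal covered length gave 318 gained and 322 lost regions, 152 higher and 128 lower genes and a median of 0.00. Quantile scaling gave 400 higher and 649 lower genes and reversed the median to -0.19. Adding 2000 bp gave 323 higher and 7 lower genes, a 1 kb window 212 higher genes, and merging peaks within 1 kb 111 lost regions. The median was 1.13 with 100 bp added and 1.14 with the 4 untreated libraries alone.

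Leaving out 1 library gave a length ratio of 1.91 to 5.38 (5.38 without 0 h replicate 2), 3187 to 6965 gained and 235 to 732 lost regions, 169 to 630 higher and 6 to 49 lower genes, and a median of 0.00 to 0.75. With the replicate block 524 genes were higher and 15 lower, 528 of the 676 calls were kept, and of the 28 called genes named by rule KCNN1, DDX31 and MSX1 were lost. Chosen after seeing the data, equal length without 0 h replicate 1, 0 h replicate 2, 60 h replicate 1 and 60 h replicate 2, in this order, gave 413, 421, 929 and 891 gained and 842, 858, 651 and 635 lost regions, and 104, 111, 89 and 82 higher and 171, 117, 118 and 114 lower genes, with a median of 0.00 each time. The 4 untreated libraries alone at equal length gave 175 higher and 152 lower genes and a median of -0.20. None of the 28 called genes changed direction under any alternative that tested it, but calls were lost at 13 with a 1 kb window, 4 with a 10 kb window, 5 with 2000 bp added, 5 with the 4 untreated libraries alone, 8 at equal length, 5 at equal covered length and all 16 tested at a -log10 q of at least 5. A window on start sites was not run because the gene table gives no strand, and equal covered length sets the length ratio itself. The causes of these moves were not tested. Sequencing depth is not known here, and the absence of a peak cannot be read as absence of the mark.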

Other observations

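EEF1A2, the translation elongation factor form that replaces EEF1A1 in adult muscle, was chosen after its values were seen because H3K27me3 and H3K4me3 appeared at it together. On chromosome 17, 62517811 to 62526379, H3K27me3 was listed at 0 in both 0 h libraries and at 2.45 and 0.681 kb at 60 h, and it was called higher with full lists (limma adjusted p = 0.0415) and at equal length (0.0385). H3K4me3 was listed at 0 at 0 h and at 4.93 and 5.16 kb at 60 h, and was called higher with and without quantile scaling. Whether both marks sat on the same DNA molecules or in different cells was not tested.

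NOVA2 was the gene whose direction turned with list length. With full lists it had 0.570 and 1.41 kb at 0 h and 5.68 and 4.62 kb at 60 h. At equal length it had 0.570 and 0.668 kb at 0 h and was listed at 0 in both 60 h libraries (limma adjusted p = 0.00242). Its 60 h peaks thus ranked below the first 1338 of their lists.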
